A study of Mus musculus with 8 samples.

Results

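The genes described here are 10 mouse genes of insulin, FoxO and mTOR signalling, out of 21887 protein-coding genes with a place on the assembly. They were chosen by name for their roles and comprise the receptors Insr and Igf1r, the adaptors Irs1 and Irs2, the mTOR kinase gene Mtor with its partner Rptor and its brake Tsc1, and the transcription factors Foxo1, Foxo3 and Foxo4. For each, the gene body and 50 kb on each side, on RefSeq's GRCm38 map, were searched for peaks of H3K27ac and H3K9ac, acetylation marks of histone H3 found at active promoters and, for H3K27ac, active enhancers. The marks were measured by CUT&Tag, in which an antibody brings a transposase to the mark and the tagged DNA is sequenced, in small intestinal crypts of male C57BL/6J mice aged 9 weeks. Mice were fed (Fed) or fasted for 24 h (Fast), and each feeding state was studied without and with 21 days of tetracycline, an antibiotic. This gave 4 groups for each mark, 1 sample in each, with 2 peak lists per sample. The list was therefore the unit of spread. The labels do not say whether both lists of a sample came from different mice, so the p-values measure only the spread between lists, which may be technical.

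Insulin and the insulin-like growth factors bind the receptors made from Insr and Igf1r, which pass the signal through the adaptors Irs1 and Irs2 to PI3K and AKT. AKT holds FoxO factors out of the nucleus and relieves the brake that the product of Tsc1, with that of Tsc2, puts on mTORC1, the growth-promoting complex of mTOR and Raptor (the product of Rptor). When food is short the signal falls, FoxO factors enter the nucleus and mTORC1 activity drops, and in the crypt this pathway is known for its part in how stem cells and their niche respond to diet.

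The 8 H3K27ac lists held 32392 to 68545 peaks covering 33.1 to 64.2 Mb, and the 8 H3K9ac lists held 17249 to 99050 peaks covering 16.5 to 47.3 Mb. Read depth was unknown, so lists may differ in how much was called. Over all genes, the median log2 ratio of covered length, Fast over Fed, was 0.21 for H3K27ac and 0.32 for H3K9ac. After each length was scaled to the total of its list, that median was -0.06 and -0.09. All 10 epithelial marker genes had a peak within 1 kb of a gene end in every H3K27ac list, and 8 to 10 of them had one in each H3K9ac list. Of 10 immune markers, 2 to 4 were marked in Fed and 3 to 6 in Fast H3K27ac lists, and 1 to 3 and 2 to 6 in H3K9ac lists. The defining markers Csf1r and Cd4 were marked in no H3K27ac list, but each was marked in at least 1 H3K9ac list. Ptprc, found on blood cells in general, was marked in at least 3 more Fast than Fed lists for H3K27ac and in no list for H3K9ac. In H3K27ac, Fed and Fast lists alike marked 0 to 2 of 10 mesenchymal genes and 0 of 4 endothelial genes. In H3K9ac these were 0 to 2 and 0 in Fed lists, against 0 to 4 and 0 to 1 in Fast lists. A further 6 genes of muscle, liver and neuron were listed as not held in crypts. Of these, 0 to 1 were marked in Fed and 1 to 2 in Fast H3K27ac lists. In H3K9ac, 0 to 2 were marked in Fed and 0 to 1 in Fast lists. The part of these other cells in the differences below was not tested, and fewer cells of a type cannot be told apart from less of a mark per cell.

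The promoters of 3 members are shown. Irs2 was taken as a member with a peak at the start in all 16 lists. Irs1 and Igf1r were taken as members whose marking varied, with a peak at the start in few lists and in most but not all. Foxo4, whose end marking also varied, had no promoter sequence available. Each sequence is the 250 bases before the RefSeq start site on the gene's own strand, GRCm38.p6: chr1:82291440-82291689 (minus) for Irs1, chr8:11008930-11009179 (minus) for Irs2 and chr7:67952007-67952256 (plus) for Igf1r. Capitals mark the E-box CACGTG, a site for basic helix-loop-helix factors, and TGTTTTG, an insulin response element of the kind FoxO factors are known to bind, each searched on both strands.
Irs1: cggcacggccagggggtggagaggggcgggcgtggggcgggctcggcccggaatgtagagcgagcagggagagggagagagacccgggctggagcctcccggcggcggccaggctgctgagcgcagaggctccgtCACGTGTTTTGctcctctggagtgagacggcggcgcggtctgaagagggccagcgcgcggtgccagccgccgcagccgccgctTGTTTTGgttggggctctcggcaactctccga
Irs2: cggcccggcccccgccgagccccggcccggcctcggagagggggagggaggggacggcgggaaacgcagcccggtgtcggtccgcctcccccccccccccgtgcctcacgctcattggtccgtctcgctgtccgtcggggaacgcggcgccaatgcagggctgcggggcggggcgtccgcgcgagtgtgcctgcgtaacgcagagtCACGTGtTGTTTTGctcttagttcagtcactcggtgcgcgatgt
Igf1r: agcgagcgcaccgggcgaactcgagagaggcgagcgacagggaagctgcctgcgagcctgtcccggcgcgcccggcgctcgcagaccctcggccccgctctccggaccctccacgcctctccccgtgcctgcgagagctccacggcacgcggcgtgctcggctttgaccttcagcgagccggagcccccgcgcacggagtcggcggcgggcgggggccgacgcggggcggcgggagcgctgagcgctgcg

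Both adaptor promoters held an E-box beside a TGTTTTG. In Irs1 the pair began 115 and 111 bases before the start, where the motifs share bases, and a further TGTTTTG lay nearer the start. In Irs2 the pair began 44 and 37 bases before the start. The Igf1r window held neither. Among 17492 RefSeq promoters of this length, 6.64% held CACGTG, 4.79% held TGTTTTG on either strand and 0.309% (54) held both. None of the 8 members with a promoter sequence held GTAAACA, the FoxO consensus core, which was in 2.58% of promoters. CpG dinucleotides numbered 28 in Irs1, 34 in Irs2 and 42 in Igf1r, against a median of 10 over all promoters. These matches are letters in a window and carry no measure of binding.

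Most members were marked at a gene end whatever the diet. Within 1 kb of an end, 7 members (Insr, Irs2, Mtor, Rptor, Tsc1, Foxo1 and Foxo3) had an H3K27ac peak in all 8 lists, a state shared by 33.6% of all genes. For H3K9ac, 5 members (Insr, Irs2, Rptor, Foxo1 and Foxo4) were marked in all 8 lists, against 21.1% of all genes. Each list marked 8 or 9 members in H3K27ac and 7 to 10 in H3K9ac, and 42.9% to 50.7% and 41.1% to 53.2% of all genes. The map of peak lengths by gene and list shows that Irs1 was the member with the fewest marked lists for both marks, and that Foxo4 was the member on which the marks differed most.

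**Figure D1:**
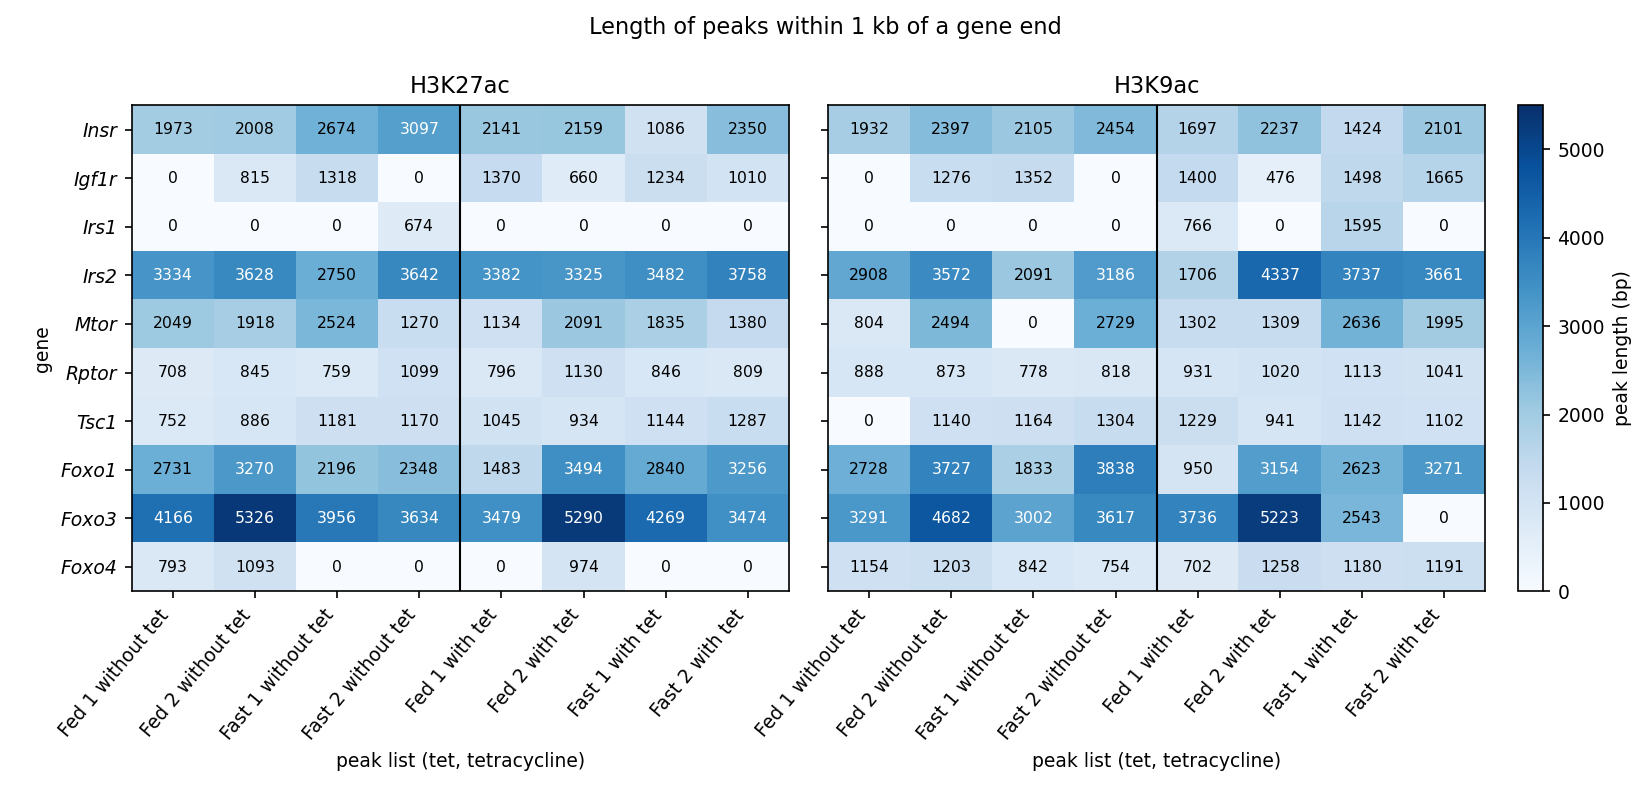
Summed length in bp of the peaks within 1 kb of either end of each member (rows) in each of the 8 lists of a mark (columns, tet meaning tetracycline); darker cells are longer and 0 means no peak. Foxo3, Irs2 and Foxo1 carry the long peaks, Rptor and Tsc1 short ones in nearly every list, and Foxo4 has no H3K27ac peak in any Fast list.

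Insr encodes the insulin receptor (NCBI gene 16337, chr8:3150922-3279649). One of its ends carried both marks in every list: H3K27ac over chr8:3277741-3280963 and H3K9ac over chr8:3277942-3280835. Insr end peaks measured 1973 and 2008 bp in Fed lists 1 and 2 without tetracycline, 2674 and 3097 bp in the Fast lists beside them, then 2141 and 2159 bp in Fed and 1086 and 2350 bp in Fast lists with tetracycline. Both Fast lists were longer than the Fed lists only without tetracycline. With it, Fast 1 was the shortest of the 8 and Fast 2 was longer than both Fed lists.

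The body of Insr held most of its H3K27ac. Insr peaks covered 4.06 and 9.32 kb of the locus in Fed lists 1 and 2 without tetracycline and 13.9 and 17.9 kb in Fast lists. With tetracycline, they covered 8.26 and 12.8 kb in Fed and 11.3 and 10.4 kb in Fast lists. Fast lists thus lay above Fed lists without tetracycline, and lay between them with it.

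The mean was 13.4 ± 3.37 kb in Fast and 8.62 ± 3.61 kb in Fed lists (SD, n = 4 lists each), a difference of 4.76 kb that was larger than in 97.9% of genes. This rank compares kb and is not adjusted for gene length, which is 129 kb for Insr. The exact permutation test of feeding within tetracycline states gave p = 0.17, and 0.79 after Benjamini-Hochberg adjustment over all genes. With 36 arrangements its smallest two-sided p is 0.056, so no member could pass 0.05 in this or any other such test. Fast minus Fed was 9.23 kb without and 0.30 kb with tetracycline, a change of -8.93 kb between states. The exact permutation of feeding within states gave p = 0.22 for this change (adjusted 1). That p refers to no feeding difference in either state, so it does not test whether the differences were equal. The fasting difference kept its sign in every alternative run, from 2.68 to 6.45 kb.

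These H3K27ac peaks lay in the part of the gene body nearer the marked end, as the map of Insr peaks shows. Regions named here and below, apart from those at gene ends in all 8 lists, were picked after their values were seen. A region at chr8:3220370-3223475 had a peak in all 8 lists. One at chr8:3235621-3236739 had a peak in 3 Fast lists and no Fed list, and one at chr8:3226980-3228088 in both Fast lists without tetracycline and in no other list. A region at chr8:3275780-3276786 was in 2 Fed lists and no Fast list. The annotation used does not divide the body into exons and introns. H3K9ac covered less of Insr, 2.70 to 4.49 kb in Fed and 2.72 to 6.66 kb in Fast lists (difference 1.45 kb, exact permutation p = 0.22, adjusted 0.88), and that difference turned to -0.03 kb when lengths were scaled to the list.

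**Figure D2:**
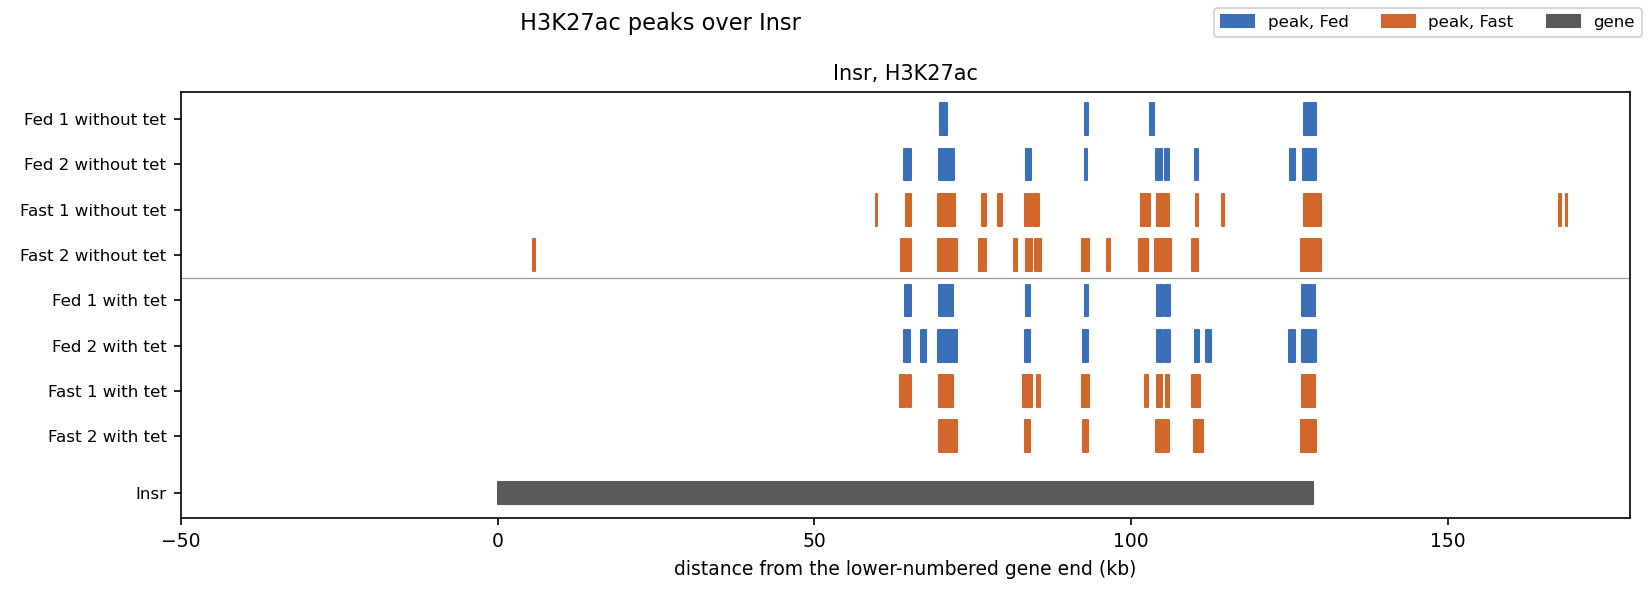
H3K27ac peaks over Insr and 50 kb on each side in each list (bars; blue Fed, orange Fast), against distance in kb from the end with the lower coordinate; the grey bar is the gene. The 2 Fast lists without tetracycline carry more and wider peaks in the gene body than the Fed lists beside them, and the end at the right is marked in all 8 lists.

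Igf1r encodes the receptor for insulin-like growth factor 1 (NCBI gene 16001, chr7:67952257-68233668). A peak at its start, H3K27ac over chr7:67950783-67952631, was present in 6 of 8 lists for both marks. The same 2 lists lacked it in both, list 1 of Fed and list 2 of Fast without tetracycline. There the nearest H3K27ac peaks lay 39787 and 176628 bp from the start. The Igf1r end peaks that were found ranked low, at 59.3% to 79.6% of the way down their H3K27ac lists by the authors' score.

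Igf1r had the largest H3K9ac difference among the members. H3K9ac peaks covered 1.57 and 7.72 kb in its Fed lists and 11.4 and 4.69 kb in its Fast lists without tetracycline, and 5.53 and 5.71 kb against 12.3 and 8.69 kb with it. Groups overlapped without tetracycline and were apart with it. Fast minus Fed was 4.13 kb (9.26 ± 3.40 against 5.13 ± 2.58 kb, SD, n = 4 lists each, exact permutation p = 0.17, adjusted 0.87), larger than in 99.3% of genes. That rank compares kb and is not adjusted for gene length, which is 281 kb for Igf1r. With the same number of top peaks taken from every list the difference was -0.11 kb. The Fast lists numbered 1, which held the most peaks of the mark, also held the most in Igf1r, 17 in the body in each.

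Irs1, an adaptor (NCBI gene 16367, chr1:82233105-82291439), was the one member whose H3K27ac cover separated all Fast from all Fed lists. Irs1 peaks covered 1.27 and 1.01 kb in Fed lists 1 and 2 without tetracycline and 3.56 and 5.48 kb in Fast lists. With tetracycline, cover was 1.42 and 2.74 kb in Fed and 3.59 and 3.87 kb in Fast lists. The lowest Fast list thus lay above the highest Fed list, as in 5.29% of all genes. With equal numbers of top peaks this order was lost.

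Means for Irs1 were 4.13 ± 0.916 kb in Fast and 1.61 ± 0.771 kb in Fed lists (SD, n = 4 lists each), 2.52 kb or 1.36 on the log2 scale apart. The exact permutation p was 0.056, the smallest possible, and 0.63 after adjustment over all genes. The difference had the same sign in every alternative run, from 0.57 kb in the upper part of each list by score to 3 kb when Fast list 1 without tetracycline was left out.

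The added H3K27ac cover at Irs1 lay away from its start. The start carried an H3K27ac peak in 1 list, Fast 2 without tetracycline, 674 bp long and with a score of 53.48 where the lowest in a list is 50. H3K9ac marked it in 2 lists, Fed 1 and Fast 1 with tetracycline (766 and 1158 bp), and the latter had a further 437 bp at the other end of the gene. In the gene body, chr1:82239015-82240200 had an H3K27ac peak in 4 Fast and 2 Fed lists, the Fed lists being those with tetracycline. In the flank, chr1:82183732-82184787 had one in 4 Fast lists and 1 Fed list. The region at the end of the neighbouring gene Rhbdd1, chr1:82315858-82317267, was marked in all 8 lists. In H3K9ac, Irs1 cover was 0.86 to 3.44 kb in Fed and 2.05 to 3.74 kb in Fast lists, which overlap (difference 1.12 kb, exact permutation p = 0.22, adjusted 0.88).

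**Figure D3:**
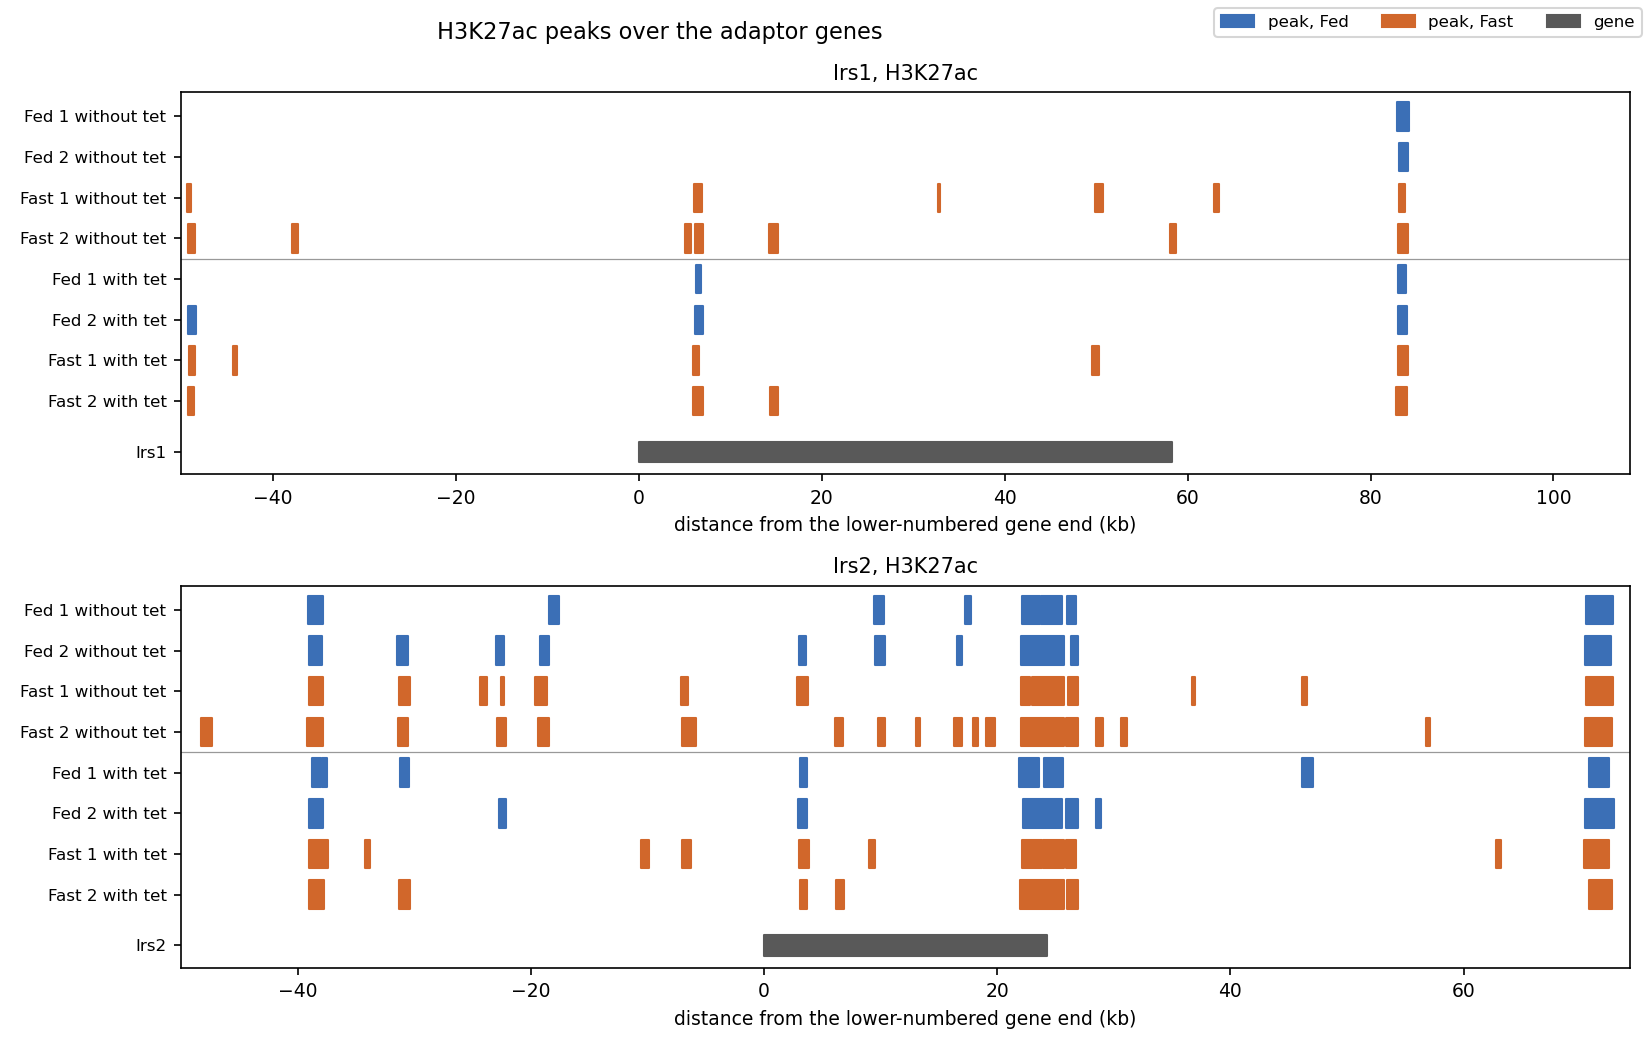
H3K27ac peaks over Irs1 (upper panel) and Irs2 (lower panel) with 50 kb on each side, by list (bars; blue Fed, orange Fast), against distance in kb from the end with the lower coordinate; grey bars are the genes. Irs1 has peaks inside the gene in all 4 Fast lists and in 2 of 4 Fed lists, while the end of Irs2 at about 24 kb is marked in all 8 lists.

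Irs2, the other adaptor and a known FoxO target in liver (NCBI gene 384783, chr8:10984681-11008929), was among the most heavily marked members. Per 100 kb of locus it carried 9.36 kb of H3K27ac and 6.51 kb of H3K9ac, more than 83.5% and 87.7% of all genes. A region of 3823 bp at the start, chr8:11006565-11010387, was marked in all 8 H3K27ac lists, and one of 4597 bp in all 8 H3K9ac lists. The peak length there was much the same in both feeding states: 3325 to 3628 bp in Fed and 2750 to 3758 bp in Fast H3K27ac lists.

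H3K27ac over the Irs2 locus was ordered by feeding within each tetracycline state. Irs2 cover was 9.83 and 11.96 kb in Fed against 12.8 and 18.1 kb in Fast lists without tetracycline, and 8.60 and 9.85 kb against 11.8 and 10.1 kb with it. Every Fast list lay above the Fed lists of its own state, although the lower Fast list with tetracycline was below the higher Fed list without it. Irs1 and Irs2 were 2 of 10 members with this order, which 8.51% of all genes had. No member had the reverse order, which 0.265% of genes had. Scaled to the total of each list, Irs1 alone kept this order (4.98% of genes) and Foxo3 had the reverse (7.65%). With equal numbers of top peaks no member had it (5.12%) and Rptor had the reverse (1.69%).

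In H3K9ac no member had either order, against 5.38% and 0.429% of genes, nor when scaled to the list (3.69% and 6.79%). With equal numbers of top peaks, Foxo3, Insr, Mtor and Rptor had every Fast list below the Fed lists of its state, 4 of 10 members against 9.03% of genes, and no member had the reverse (0.736%).

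The Irs2 difference was 3.15 kb (13.2 ± 3.44 against 10.1 ± 1.40 kb, SD, n = 4 lists each; exact permutation p = 0.056, adjusted 0.63). Leaving out 1 list gave 1.83 kb (without Fast 2 without tetracycline) to 4.47 kb (without Fast 1 without tetracycline). In the upper part of each list by score the difference was -0.39 kb. The flank region chr8:10977589-10978854 had a peak in 3 Fast lists and no Fed list. The flank regions chr8:10945449-10947247 and chr8:11055021-11057565 were marked in all 8 H3K27ac lists. In H3K9ac each of these was marked in 3 Fed lists and 1 Fast list, and Irs2 cover as a whole differed by -0.04 kb (exact permutation p = 1).

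Mtor encodes the kinase of both mTOR complexes (NCBI gene 56717, chr4:148448582-148557685). Its start, chr4:148447877-148449501, was marked by H3K27ac in all 8 lists, with peaks of 1134 to 1380 bp in Fed and 1127 to 1506 bp in Fast lists. The other end, which adjoins Exosc10, had a peak of its own in 3 Fed and 2 Fast lists. H3K9ac marked an end of Mtor in 7 lists. It was missing in Fast 1 without tetracycline, and in Fed 1 without tetracycline the peak lay at the other end and the start was 3575 bp from the nearest peak. Mtor cover overlapped between feeding states for both marks, at 1.74 to 6.00 kb in Fed and 3.52 to 6.40 kb in Fast H3K27ac lists.

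Rptor encodes Raptor, the subunit that brings substrates to mTORC1 (NCBI gene 74370, chr11:119602905-119899591). Its start was marked in all 16 lists by short peaks, H3K27ac over chr11:119602367-119603846. Peaks there measured 708 to 1130 bp for H3K27ac, a mean length that exceeded only 2.47% of the genes marked in all 8 lists, and 708 to 1113 bp for H3K9ac. Fed 2 with tetracycline had a further 312 bp of H3K9ac at the other end. Summed over both ends or at the start alone, the H3K9ac values were lower in both Fast lists without tetracycline and higher in both with it, an order of opposite sides that 1.5% of genes had. The Rptor promoter had 9 CpG, near the median of all promoters. H3K27ac covered 11.8 to 18.3 kb of the locus in Fed and 11.6 to 17.2 kb in Fast lists. Its widest region, 6379 bp at chr11:119912395-119918773, lay in the flank at the end of the neighbouring gene Chmp6 and was marked in all 8 lists. The difference was -1.31 kb (exact permutation p = 0.39, adjusted 0.98), whereas 73.6% of genes had more cover in Fast lists.

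Tsc1 encodes hamartin, a brake on mTORC1 (NCBI gene 64930, chr2:28640993-28691172). Its start, chr2:28640539-28641825, was marked by H3K27ac in all 8 lists and by H3K9ac in 7, all but Fed 1 without tetracycline. Tsc1 end peaks in H3K27ac measured 752 and 886 bp in Fed and 1181 and 1170 bp in Fast lists without tetracycline, and 1045 and 934 bp against 1144 and 1287 bp with it. Every Fast list lay above every Fed list, the only member of which this was so, as for 2.38% of genes.

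The Tsc1 end difference was 291 bp (1196 ± 62.9 against 904 ± 121 bp, SD, n = 4 lists each; exact permutation p = 0.056, adjusted 1). In the upper part of each list by score it was -30.5 bp, where the low-scoring end peak of Fast 2 with tetracycline drops out. That peak ranked at 90.0% of the way down its list. In the flank, chr2:28628772-28631055 and chr2:28631816-28633715 were marked by H3K27ac in all 8 lists. Tsc1 cover in H3K9ac was 0.78 and 4.44 kb in Fed and 8.26 and 2.86 kb in Fast lists without tetracycline, and 1.62 and 4.80 kb against 5.67 and 5.12 kb with it. The states were apart only with tetracycline (difference 2.57 kb, exact permutation p = 0.22, adjusted 0.88), and with equal numbers of top peaks the difference was -0.25 kb.

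**Figure D4:**
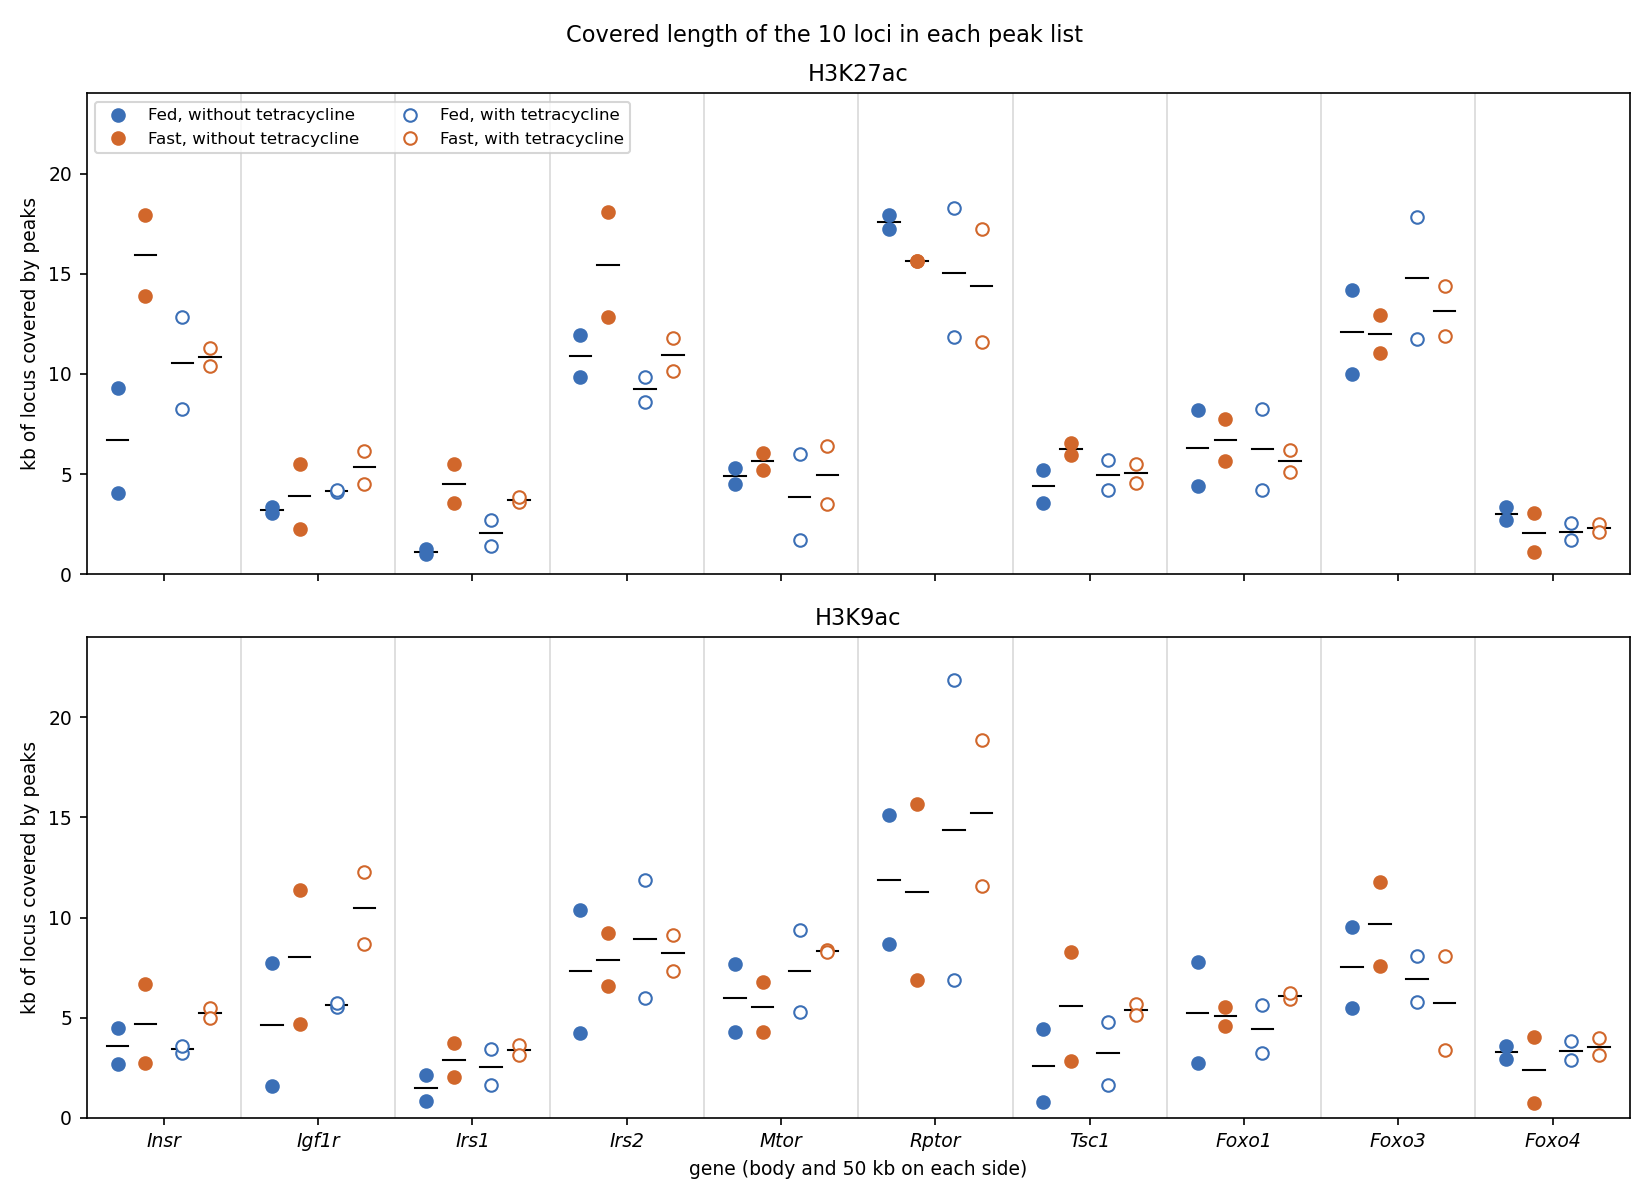
Kb of each locus (gene body and 50 kb on each side) covered by peaks in each list (points; blue Fed, orange Fast, filled without and open with tetracycline), with the group mean as a bar. For H3K27ac, Irs1 has all 4 Fast points above all 4 Fed points, while most other members overlap. Points of a group lie further apart in H3K9ac than in H3K27ac for Rptor, but closer together for Insr.

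Foxo1 and Foxo3 encode FoxO factors that switch on stress and fasting genes. Foxo3 (NCBI gene 56484, chr10:42181845-42276695) had the widest H3K27ac region at an end of any member, 5588 bp at chr10:42273426-42279013, present in all 8 lists. Its end peaks exceeded in length those of 94.2% of the genes marked in all 8 H3K27ac lists, and they stood in the top 0.197% (Fast 2 without tetracycline) to 15.1% (Fed 1 with tetracycline) of their lists by score. Foxo1 (NCBI gene 56458, chr3:52268337-52350109) had a region of 3557 bp at its start, chr3:52267449-52271005, in all 8 lists.

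Foxo3 end peaks in H3K27ac measured 4166 and 5326 bp in Fed and 3956 and 3634 bp in Fast lists without tetracycline, and 3479 and 5290 bp against 4269 and 3474 bp with it. Both Fed lists numbered 2 stood above all others and the rest overlapped (difference -732 bp, exact permutation p = 0.22, adjusted 1). Without the lists numbered 2 that difference was 290 bp.

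In H3K9ac the Foxo3 end peaks measured 3291 and 4682 bp in Fed and 3002 and 3617 bp in Fast lists without tetracycline. With tetracycline the values were 3736 and 5223 bp in Fed and 2543 bp in Fast 1, and Fast 2 had no peak within 1 kb, its nearest lying 6588 bp from the start. That list had 31.2% of its peaks at the smallest width of 200 bp. The difference was -1942.5 bp (exact permutation p = 0.11, adjusted 1), and -1307 bp without that list. It stayed below 0 in every alternative run.

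With all peaks, cover of the Foxo3 locus overlapped between feeding states, at 9.999 to 17.8 kb in Fed and 11.04 to 14.4 kb in Fast H3K27ac lists. Every Fast list lay below the Fed lists of its state when H3K27ac cover was scaled to the list (7.65% of genes). The same held in H3K9ac with equal numbers of top peaks (9.03% of genes). Inside the gene, chr10:42202103-42203652 and chr10:42229689-42231805 were marked in all 8 H3K27ac lists. A region at chr10:42220459-42221053 was marked in 3 Fed lists and no Fast list, and one at chr10:42251037-42251660 in 3 Fast lists and no Fed list. Foxo1 end peaks ranged from 1483 to 3494 bp in Fed and 2196 to 3256 bp in Fast H3K27ac lists. Foxo1 cover differed by -0.10 kb for H3K27ac and 0.73 kb for H3K9ac (exact permutation p = 1 and 0.61).

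Foxo4 (NCBI gene 54601, chrX:101254261-101260873), the smallest of the 10 genes, had an end marked by H3K9ac in every list and by H3K27ac only in Fed lists. Foxo4 end peaks in H3K27ac measured 793 and 1093 bp in Fed 1 and 2 without tetracycline and 974 bp in Fed 2 with it, at chrX:101253818-101254938. Fed 1 with tetracycline and all 4 Fast lists had none. An excess of at least 3 Fed over Fast lists at a gene end was seen in 0.256% of all genes. No member had the reverse excess (0.841%), and in H3K9ac no member had an excess of this size toward Fast (1.04%) or Fed lists (0.726%).

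The peaks concerned were weak, at 55.2% to 78.2% of the way down their lists, and the upper part of each list by score held none. The Foxo4 end difference was -715 bp (exact permutation p = 0.17, adjusted 1). In H3K9ac the same end, chrX:101253863-101255231, measured 702 to 1258 bp in Fed and 583 to 1191 bp in Fast lists, which overlap. Fast 1 without tetracycline had a further 259 bp at the other end, and summed over both ends the difference was -87.5 bp (exact permutation p = 0.83). The neighbours Snx12 and Med12 had an H3K27ac peak at an end within the Foxo4 flanks in 7 lists each, 4 and 3 of them Fast. The end of Il2rg, a lymphocyte gene, was marked in 2 Fed and 2 Fast lists.

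**Figure D5:**
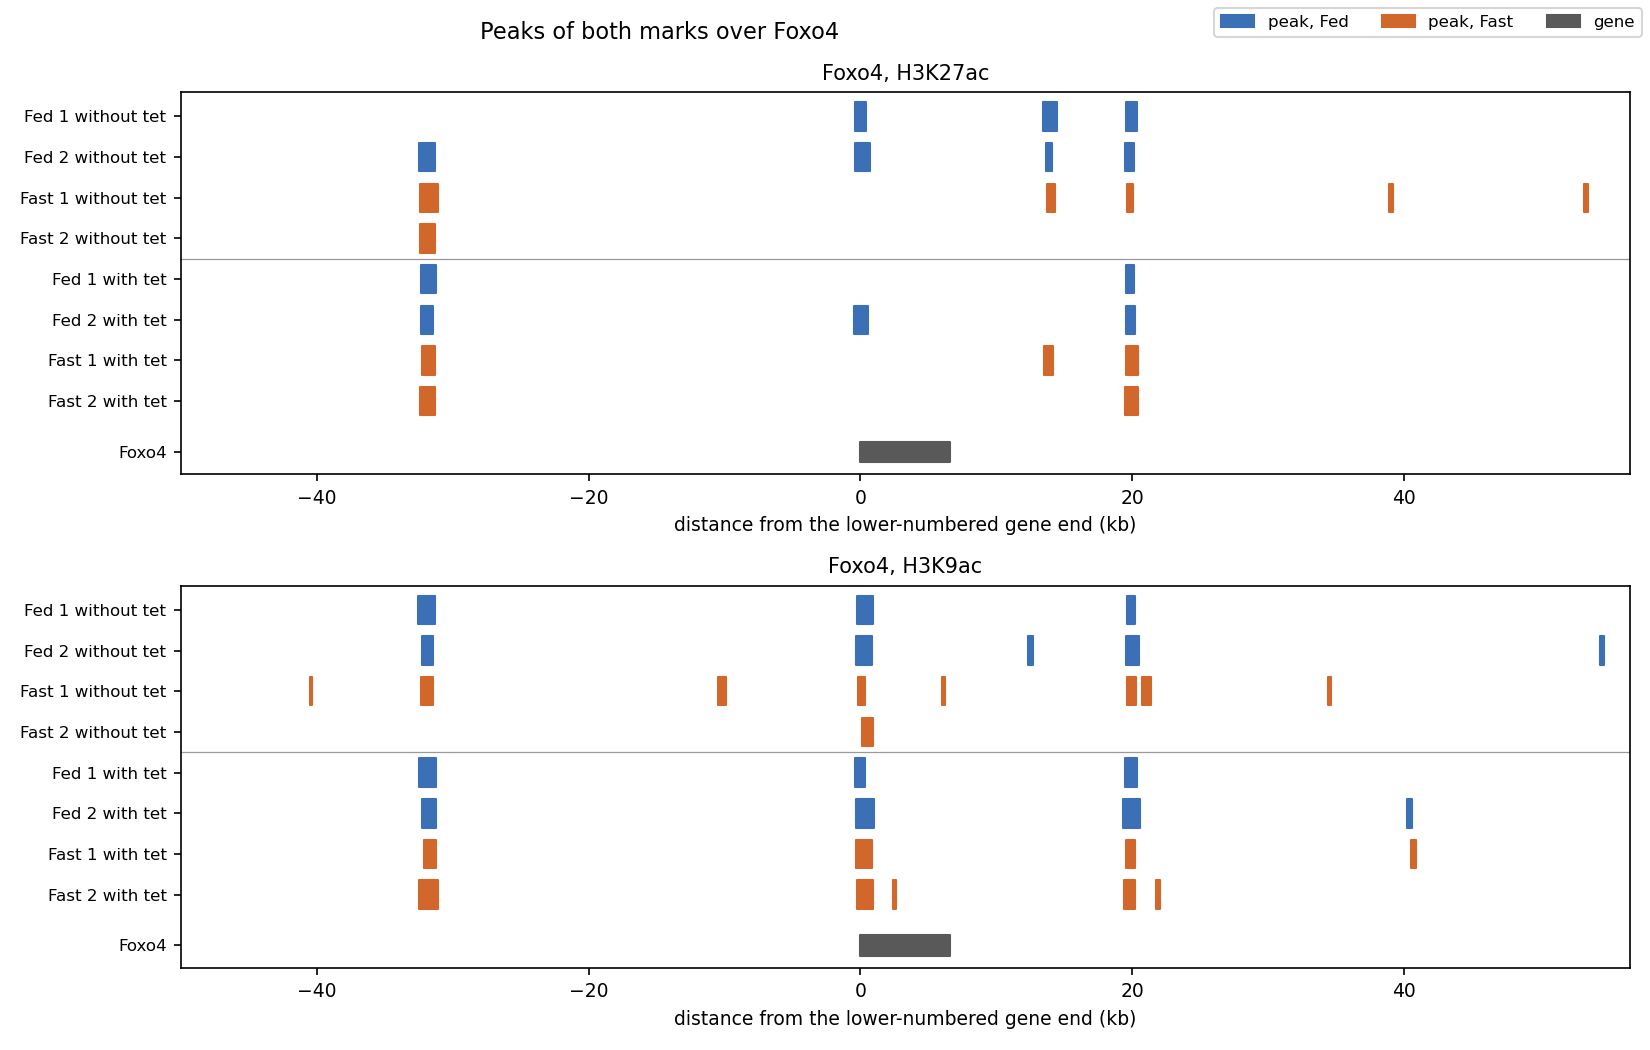
H3K27ac (upper panel) and H3K9ac (lower panel) peaks over Foxo4 and 50 kb on each side by list (bars; blue Fed, orange Fast), against distance in kb from the end with the lower coordinate; the grey bar is the gene. At 0 kb the H3K9ac peak is in all 8 lists and the H3K27ac peak in 3 Fed lists.

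Across the 10 loci, no region was absent from all lists of one feeding state and present in all lists of the other. Merging overlapping peaks of the 8 lists gave 179 H3K27ac and 467 H3K9ac regions. Presence in all 4 Fast lists and absence from Fed lists was found in 0 of these (0.4% and 0.0189% of regions over the whole genome), and so was the reverse (0.0837% and 0.0145%). With at least 3 lists of one state and none of the other, there were 3 Fast regions (1.68%, against 1.45% of the genome's regions) and 2 Fed regions (1.12% against 0.465%) in H3K27ac. In H3K9ac there were 3 Fast regions (0.642% against 0.26%) and 1 Fed region (0.214% against 0.135%). In all 8 lists were 18 H3K27ac regions (10.1%, against 14.6% of the genome's regions) and 7 H3K9ac regions (1.499% against 1.52%). Single-list regions were 52.0% and 81.6%, against 53.1% and 84.4%. Of the 58 H3K27ac regions in at least 4 lists, 9 lay at a member's end, 23 in a body and 26 in a flank. An H3K9ac region of any list overlapped 49 of them, and for 27 that region was itself in at least 4 lists. For these counts by place and overlap no share over the genome was computed, so they do not set the loci apart from others.

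Gains and losses were also counted within each tetracycline state. Without tetracycline, 7 H3K27ac regions of the loci were in both Fast and no Fed list (3.91%, against 3.1% of all regions) and 4 in both Fed and no Fast list (2.23% against 1.2%). The 7 lay in Insr and Irs1 (2 each), Irs2, Mtor and Foxo3. With tetracycline, gains numbered 2 and losses 3 (1.12% and 1.68%, against 1.91% and 1.05%). In H3K9ac, gains and losses were 2 and 1 without tetracycline (0.428% and 0.214%, against 0.635% and 0.365%). With tetracycline they were 8 and 4 (1.71% and 0.857%, against 0.972% and 0.442%). With 2 lists against 2 these counts carry no test.

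Cover was higher in Fast lists for 6 of 10 members in H3K27ac and 8 of 10 in H3K9ac, against 73.6% and 74.0% of all genes. The median difference was 0.931 kb over members and 0.431 kb over all genes for H3K27ac, and 0.604 and 0.480 kb for H3K9ac. Scaled to the total of each list, 5 members were higher in H3K27ac and 3 in H3K9ac, against 46.1% and 45.0% of all genes. With equal numbers of top peaks these were 5 and 1, against 48.9% and 27.7%. The sole member higher in Fast for both marks under both of these was Irs1. No gene passed an adjusted p of 0.05 in the exact permutation tests of feeding, and none had an unadjusted p below 0.05, which 36 arrangements cannot give.

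Tetracycline separated no member in either mark: the lists with tetracycline all lay above those without, within each feeding state, in 0.302% of genes for H3K27ac and 0.781% for H3K9ac, and all below in 2.91% and 0.32%. Covered length was higher with tetracycline in 3 of 10 members for H3K27ac, against 25.3% of all genes, and in 9 of 10 for H3K9ac, against 56.8%. The exception in H3K9ac was Foxo3, at 6.34 ± 2.24 kb with and 8.60 ± 2.69 kb without tetracycline (SD, n = 4 lists each; exact permutation p = 0.33, adjusted 1). Irs2 had the largest H3K27ac difference, 10.1 ± 1.31 kb with and 13.2 ± 3.51 kb without (exact permutation p = 0.11, adjusted 1). The median over members was -0.45 kb for H3K27ac, turning to 0.17 kb when scaled to the list, and 0.70 kb for H3K9ac. The change of the fasting difference between tetracycline states had an adjusted p of 1 in every member (exact permutation of feeding). That permutation does not test whether the fasting differences of the states were equal.

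The rest of the pathway was described by a list of 84 genes. Of these, 47 (56.0%, against 33.6% of all genes) had an H3K27ac peak at a gene end in all 8 lists and 11 in none, a state that 39.4% of all genes had. For H3K9ac these were 33 (39.3%, against 21.1%) and 6, where 25.2% of all genes were marked in none. The genes of the ligands, Ins1, Ins2, Igf1 and Igf2, were marked in no H3K27ac list, as was Insrr, an insulin receptor relative. H3K9ac marked Igf2 in 1 Fast list and Insrr in 1 Fast and 1 Fed list, and Ins1, Ins2 and Igf1 in no list. Among 13 genes of PI3K and AKT signalling, 9 to 12 were marked in Fed and 10 to 12 in Fast H3K27ac lists. For 8 genes of the mTOR complexes these ranges were 6 to 8 in both, and for 17 genes of the FoxO family and its targets 13 to 14 and 12 to 15.

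Few pathway genes had a clear excess of lists in one feeding state. Sgk1, a kinase of the AKT type that acts on FoxO factors, was marked by H3K27ac in 4 Fast lists and 1 Fed list. It was the sole gene of the 84 with an excess of at least 3 Fast lists (1.19%, against 0.841% of all genes). H3K9ac marked Sgk1 in 4 Fast and 3 Fed lists. Tsc2, the partner of Tsc1, was marked by H3K9ac in 4 Fed lists and 1 Fast list, the sole gene with the reverse excess (1.19%, against 0.726%). Its H3K27ac went the other way, in 3 Fast lists and 1 Fed list.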

How the data were processed

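Peaks were used as the authors deposited them, in 16 lists, 2 per sample. Each list gave positions with a peak name that starts with MACS and a score. The authors' score comes without a unit and served here to order peaks inside a list, never to compare lists. FastQC, Bowtie, SAMtools and the build mm10 are named in the submitters' processing notes. The caller's version and cutoff and any use of IgG libraries are not given in the sources used here. Depth is unknown (the list names say downsampled), so no interval that needs it is given.

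Genes came from RefSeq's GRCm38.p6 table, and start sites and promoter sequences from its promoter table, which held 8 of the 10 members. A gene counted as marked with a peak no more than 1 kb from either end. Covered length is the bp of peaks in the body and 50 kb on each side. Regions are peaks of the 8 lists of a mark merged on an overlap of at least 1 bp. Feeding was permuted exactly within tetracycline states (36 arrangements, two-sided) for every gene, with Benjamini-Hochberg adjustment over 21887 genes. Tetracycline was permuted likewise within feeding states. For the change of the fasting difference between tetracycline states, feeding was again permuted. Its p therefore refers to no feeding difference in either state. A fixed difference added to covered lengths of simulated lists checked the arithmetic only. It did not test whether differences in the real lists would be detected. Percentages beside counts give the share of all genes or regions with the same state.

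The members and gene lists were chosen with earlier results of these data known. A result on a single marker gene is not reported here. All members are named, as is the widest region at each member's end marked in all 8 lists; pathway genes are named where at least 3 more lists of one feeding state marked them (the unmarked ligand genes, Insrr and the marker genes were named after their values were seen), and 3 promoters by how their marking varied. Alternatives were peaks with a score in the upper 0.5 of their list, equal numbers of top peaks and peaks of at least 500 bp. Scaling to the covered length of the list, flanks of 1 or 20 kb and windows of 2.5 kb or the start only were also used. So were 2 other overlap rules, leaving out lists, and pairing by list number. Peaks seen in at least 1 other list were added as an alternative after the data were seen. Scripts ran in Python 3.11.15 with scipy 1.17.1, pandas 2.3.3 and numpy 2.4.6, and figures were drawn with matplotlib 3.10.9.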

Additional observations from a re-analysis of the deposited data

Results flagged for a closer look

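The H3K9ac peak at the ends of Rptor, which encodes the mTORC1 subunit Raptor, moved in opposite directions with fasting in the 2 tetracycline states. Without tetracycline it measured 888 and 873 bp in Fed and 778 and 818 bp in Fast lists, and Fast minus Fed was -82.5 bp. With tetracycline it measured 931 and 1020 bp in Fed and 1113 and 1041 bp in Fast lists, and Fast minus Fed was 101.5 bp. The value of 1020 bp includes 312 bp at the other end of the gene, without which it is 708 bp. Every Fast list lay below the Fed lists in one state and above them in the other, as in 1.5% of all genes. This difference between the states was not tested.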

How the results depend on the processing

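No result passed a threshold in any setting, so settings could change only direction or size; the cause of each change below was not tested, beyond fewer peaks, lists or bases entering. Among single genes, 153 values outside left-out lists kept their direction and 38 turned. The H3K27ac cover differences of Irs1 and Insr and the H3K9ac cover difference of Irs1, all higher in Fast, turned nowhere. Nor did the end-peak differences of Foxo4 in H3K27ac and Foxo3 in H3K9ac, both lower in Fast. The Foxo4 one fell to 0 in the upper part of each list by score. Outside left-out lists, cover of Foxo3 and Rptor and end peaks of Foxo3 in H3K27ac also stayed lower in Fast. So did cover of Foxo4 in H3K9ac. Keeping only peaks with a score in the upper 0.5 of their list gave, for Fast minus Fed cover in H3K27ac, Foxo1 0.76, Foxo4 0.13, Igf1r -0.0038 and Irs2 -0.39 kb, for Tsc1 end peaks -30.5 bp, and in H3K9ac Foxo3 -1.13, Insr -0.64, Mtor -0.33 and Rptor -1.68 kb. Equal numbers of top peaks gave H3K27ac Foxo1 0.10, Igf1r -0.046 and Mtor -0.61 kb, Tsc1 end peaks -30.5 bp, and H3K9ac Foxo1 -0.53, Foxo3 -2.61, Insr -1.05, Igf1r -0.11, Mtor -1.98, Rptor -4.60 and Tsc1 -0.25 kb. Peaks of at least 500 bp gave H3K9ac Foxo1 -0.50, Foxo3 -0.14, Mtor -0.23 and Rptor -2.19 kb. Scaling to the list gave H3K27ac Tsc1 -0.0075 kb, and H3K9ac Foxo1 -0.40, Foxo3 -2.08, Insr -0.028, Mtor -1.65 and Rptor -3.74 kb. A flank of 1 kb gave H3K9ac Irs2 0.93 kb, and a flank of 20 kb gave H3K9ac Irs2 0.58 and H3K27ac Foxo1 0.38 kb. Peaks recurring in another list gave H3K9ac Foxo1 -0.19, Foxo3 -0.80, Mtor -1.17, Rptor -2.24 and Tsc1 -0.090 kb.

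Over all members, mean H3K27ac cover of the loci was 76.9 kb per list. It was 49.2 kb in the upper 0.5 and 60.7 kb with equal numbers. With flanks of 1 kb it was 43.0 kb, and with flanks of 20 kb it was 58.9 kb. The H3K9ac value of 62.1 kb was 37.0 kb in the upper 0.5 and 30.3 kb with equal numbers. Scaling moved the median end-peak difference from -0.38 to -341 bp in H3K27ac and from 122.6 to -364 bp in H3K9ac. Equal numbers moved the median change of the H3K27ac fasting difference between tetracycline states from -1.29 to 0.51 kb. They also gave 1 H3K27ac region held by each Fast list but by no Fed list and 1 in the reverse state, where all peaks gave 0; peaks of at least 500 bp gave 1 in all Fast lists, and the upper 0.5 gave 1 H3K9ac region in all Fed lists.

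Leaving out a list, or all lists of one number, turned the direction of 43 of 240 single-gene values. In H3K27ac cover the ranges were Foxo1 -1.81 to 1.61, Foxo3 -3.58 to 1.82, Foxo4 -1.34 to 0.57, Igf1r -0.21 to 2.12, Mtor -0.86 to 2.67 and Rptor -4.51 to 1.90 kb, and Foxo3 end peaks ranged from -1754 to 290 bp. In H3K9ac cover they were Foxo1 -1.27 to 2.73, Foxo3 -3.33 to 4.29, Foxo4 -1.35 to 0.65, Insr -0.19 to 3.10, Igf1r -0.025 to 8.28, Irs2 -3.26 to 3.17, Mtor -2.22 to 2.80, Rptor -9.27 to 9.47 and Tsc1 -0.63 to 5.76 kb. The median over members ranged from -0.54 to 2.01 kb (H3K27ac) and -1.31 to 3.14 kb (H3K9ac), and its change between tetracycline states from -3.30 to 0.77 and -2.20 to 2.48 kb. Regions held by each Fast list but by no Fed list numbered 0 to 6 (H3K27ac) and 0 to 9 (H3K9ac), and the reverse 0 to 8 and 0 to 11, the higher values with fewer lists to satisfy. With list numbers taken as a pairing block (16 sign flips, smallest p 0.125), no call changed; list numbers come from names, not labels, and do not show that lists pair. Scaling cannot be applied to counts, and the alternative overlap rules only to regions.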

Other observations

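For the 2 members of each mark with the largest fasting difference in covered length, the genes on other chromosomes whose covered length followed theirs most closely over the 8 lists were taken, by Pearson's r. The r values are a description over 8 lists that share their size and depth with both genes compared. For Insr in H3K27ac these were Mars2 (r = 0.988), Ighmbp2 (0.986) and Tle1 (0.984). For Irs2 in H3K27ac they were D630003M21Rik (r = 0.993), Pdlim7 (0.984) and Krt80 (0.979). For Igf1r in H3K9ac they were Foxp1 (r = 0.996), Gfi1b (0.989) and Slc4a4 (0.979), and for Tsc1 in H3K9ac Cramp1l (0.990), Car15 (0.989) and Sema3g (0.989). Mean Foxp1 cover was 9.31 kb in Fed and 15.8 kb in Fast lists, and mean Gfi1b cover 1.80 and 4.33 kb.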
